A study of Mus musculus with 10 samples.

Results

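Transcript levels of the ubiquitin-specific protease (USP) genes were described on 10 Affymetrix arrays of mouse embryonic stem cells. The genes were taken by name: every gene whose symbol in the array's annotation is Usp followed by digits alone, which gave 45 of 18194 named genes. They are covered by 112 probe sets, with 1 probe set for 11 genes and several for 34. Each gene is given by its probe set of highest mean over all arrays. The cells were of the line NG4, received siRNA at plating, were kept with retinoic acid, which starts their differentiation, and were harvested 48 h later. These conditions were the same in all 5 groups, which differ in the siRNA alone and hold 2 arrays each. The control siRNA, siNonTarget, matches no gene. In the remaining groups it was siSocs3, against an inhibitor induced by, and acting on, the LIF pathway through STAT3; siSox17, against an endoderm transcription factor; siFbxw7, against the substrate receptor of an SCF ubiquitin ligase; and siRnf31, against a subunit of the linear ubiquitin ligase. All arrays are from 1 cell line, and nothing in the labels tells whether the 2 arrays of a group were separate cultures; the p-values below therefore cover the spread between these arrays, which may be technical.

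USP enzymes are cysteine proteases that cut ubiquitin from proteins or from ubiquitin chains. They form the largest family of deubiquitinases, and so oppose ubiquitin ligases such as those that hold FBXW7 and RNF31. Single members are known for work at the proteasome, on histones, in DNA repair, on p53, at endosomes and in immune signalling, and several act with a partner protein that activates or places them. In embryonic stem cells they are known to act on pluripotency factors and on histones.

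Levels are log2 intensities, and a difference of 1 on this scale is a 2-fold difference in intensity. All 15 markers of embryonic stem cells stood above the array's median on all 10 arrays. So did 5 of 8 extraembryonic endoderm, 4 of 6 neural, 4 of 11 fibroblast and 0 of 5 blood markers. The median was taken over all probe sets and each marker from its probe set of highest mean, so this is a low bar. The median intensity per array lay between 46.39 and 47.95. The actin 3' to 5' log2 difference, which grows as RNA is degraded, was 0.50 on siNonTarget replicate 1, 0.60 on siFbxw7 replicate 1, and between 0.21 and 0.29 on the other arrays. Socs3, Sox17, Fbxw7 and Rnf31 did not differ past the threshold in the groups named after them (limma adjusted p between 0.281 and 0.988). Socs3 itself was higher in siSocs3, against the direction of a knockdown (0.44 ± 0.24; 10.66 and 10.11 against 9.62 and 10.28 in siNonTarget). Sox17 was 0.03 ± 0.53, Fbxw7 −0.25 ± 0.15 and Rnf31 −0.40 ± 0.17 in their own groups. The group names therefore rest on the labels, and siSocs3 below stands for the arrays labelled so. In siSocs3, 9 of the 15 stem cell markers were higher than in siNonTarget and 0 lower, and their mean was 11.40 and 11.50 against 10.40 and 10.42. Of all genes, 3.59% were called higher and 5.66% lower in this comparison. Of 6 neural markers, 4 were lower and 0 higher, with a mean of 6.64 and 6.99 against 7.95 and 8.38. Fibroblast markers (2 of 11 lower, 0 higher; mean 5.76 and 6.03 against 5.90 and 6.37) and extraembryonic endoderm markers (1 of 8 lower, 0 higher; mean 6.72 and 6.98 against 7.08 and 7.29) differed less. The part of these cell states in the USP differences was not tested, and in bulk RNA fewer cells of a type cannot be told apart from less RNA per cell.

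In the arrays labelled siSocs3, 6 of the 45 USP genes fell against siNonTarget and 0 rose (limma, Benjamini-Hochberg adjusted p under 0.05 over all genes). They were Usp25, Usp11, Usp44, Usp46, Usp31 and Usp47. With the mean of each gene's probe sets in place of the brightest, 3 fell (Usp25, Usp11 and Usp44) and 2 rose (Usp16 and Usp48). The 6 are 13.3% of the USP genes, while 9.26% of all genes were called here, 5.66% lower and 3.59% higher. The median difference was −0.07 over the USP genes and 0.03 over all genes, and 24 USP estimates lay below 0 against 21 above. Of the 45 USP genes, 22 (48.9%) stood within 0.2 of the control, against 55.3% of all genes, and 4 (8.89%) differed by over 1.5-fold, against 10.3%. The family as a whole thus stood near the background of the array, with a few members lower. The count of 6 depended on individual arrays. Leaving out siSocs3 replicate 1 gave 0 calls, leaving out siSocs3 replicate 2 or siNonTarget replicate 1 gave 1, 2 were made without either siSox17 array, and 3 without siNonTarget replicate 2. The calls over all genes fell too, from 1684 to 63 and 638 when the first or the second siSocs3 array was dropped, to 313 and 1116 when the first or the second siNonTarget array was, and to 1133 without either siSox17 array.

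**Figure D1:**
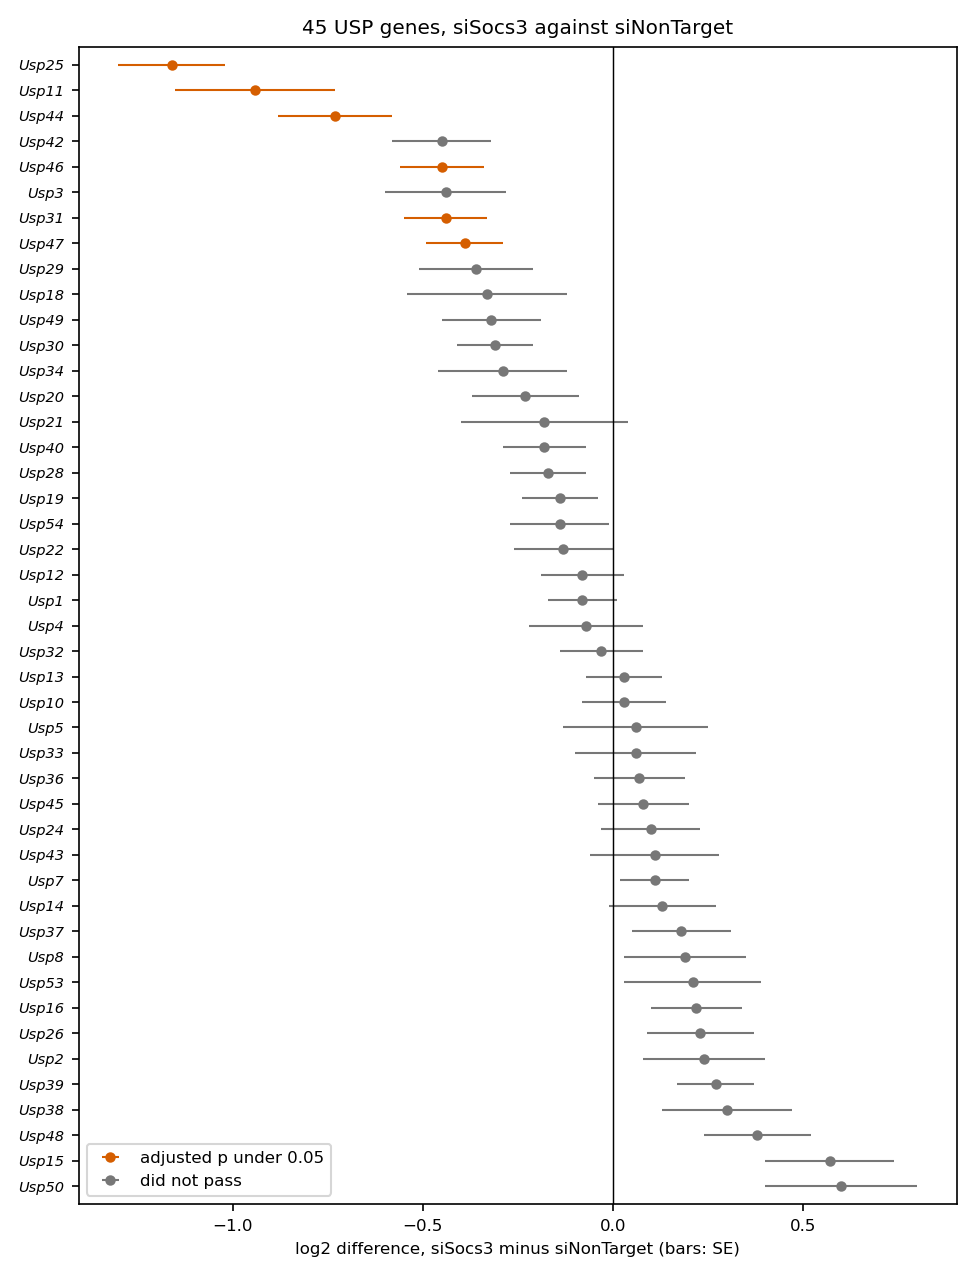
Log2 difference between siSocs3 and siNonTarget (x axis) for each of the 45 USP genes (y axis), with bars of 1 standard error and the genes past the adjusted p threshold of 0.05 in orange. The estimates run from −1.16 (Usp25) to 0.60 (Usp50), and the 6 called genes all lie below 0.

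The clearest difference was in Usp25, a deubiquitinase known from innate immune signalling and from stabilising tankyrases. It read 7.15 and 7.44 on the siSocs3 arrays and 8.37 and 8.53 on the control arrays. On the other arrays it read 7.96 and 8.09 (siSox17), 8.28 and 8.06 (siFbxw7), and 8.20 and 8.43 (siRnf31). Both siSocs3 arrays were thus the lowest of the 10. Usp25 fell by 1.16 ± 0.14 on the log2 scale against siNonTarget (SE, n = 2 arrays per group, limma adjusted p = 0.00432), a 2.23-fold difference. It was also the single USP gene called in the direct comparisons. It was lower in siSocs3 by −0.73 ± 0.14 against siSox17 (limma adjusted p = 0.034), −0.88 ± 0.14 against siFbxw7 (0.0136) and −1.02 ± 0.14 against siRnf31 (0.0109). That is 1 of 45 genes (2.22%) in each, where 2.61%, 3.51% and 2.13% of all genes were called. These Usp25 calls were lost in 5, 4 and 3 of 21 other settings. The mean of probe sets was among these settings for siSox17 and siRnf31, and the 2 groups alone for siFbxw7. A 2-fold minimum is not counted among the 21, and with it the calls against siSox17 and siFbxw7 were lost too. A test of any difference among the 5 groups (limma F test) called Usp25 alone of the USP genes (adjusted p = 0.0196), beside 1.87% of all genes. Its other probe set, which is dimmer, gave −0.69 ± 0.27 and did not pass (adjusted p = 0.161 over all probe sets). Against siNonTarget the call was lost without siSocs3 replicate 1 (−1.01). It held in the other 19 settings counted and with a 2-fold minimum.

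Usp11 followed, an X-linked gene whose product acts in homologous recombination. It read 7.70 and 7.77 in siSocs3, against 9.03 and 8.33 in siNonTarget. It read 8.13 and 8.16 in siSox17, 8.60 and 8.20 in siFbxw7, and 8.36 and 8.32 in siRnf31. Both siSocs3 arrays were again the lowest, while the control arrays differed from each other by 0.69, the widest replicate gap of any USP gene in siNonTarget. The difference was −0.94 ± 0.21 (SE, n = 2, limma adjusted p = 0.0278). Without siNonTarget replicate 1, the control with the larger actin difference, it shrank to −0.60 and the call ended. Without both arrays of high actin difference, siNonTarget replicate 1 and siFbxw7 replicate 1, it was also −0.60 and the call held. The call also ended without either siSocs3 array, without either siSox17 array or with a 2-fold minimum. It ended as well with the 2 groups alone (limma adjusted p = 0.0747). Against siSox17, siFbxw7 and siRnf31 the estimates were −0.41, −0.66 and −0.61, none of them past the threshold (adjusted p = 0.365, 0.132 and 0.19).

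The start regions of these 2 genes are shown because they carried the largest differences and are unlike in sequence. Each is 300 bases from RefSeq on GRCm38.p6, 250 before and 50 after the annotated start, printed 5′ to 3′ on the strand of the gene. Usp25 lies at chr16:77013819-77014118 (plus strand) and Usp11 at chrX:20703659-20703958 (plus strand). Capitals mark matches to the motifs searched, of which Usp25 holds none.
Usp25: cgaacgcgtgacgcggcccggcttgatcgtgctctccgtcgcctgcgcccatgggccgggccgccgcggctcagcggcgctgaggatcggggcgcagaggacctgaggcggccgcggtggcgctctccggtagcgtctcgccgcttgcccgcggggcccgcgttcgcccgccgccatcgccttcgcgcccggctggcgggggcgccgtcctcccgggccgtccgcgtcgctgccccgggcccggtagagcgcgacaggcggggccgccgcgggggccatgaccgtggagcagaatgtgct
Usp11: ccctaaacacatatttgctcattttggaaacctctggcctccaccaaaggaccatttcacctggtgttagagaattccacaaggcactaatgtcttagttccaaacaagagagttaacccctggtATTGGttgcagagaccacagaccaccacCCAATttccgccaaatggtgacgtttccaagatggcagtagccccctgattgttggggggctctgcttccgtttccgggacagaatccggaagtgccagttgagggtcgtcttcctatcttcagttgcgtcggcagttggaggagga
The Usp25 window holds 54 CpG dinucleotides and is 79% G and C, and the Usp11 window holds 8 and is 50.7% G and C, with 2 CCAAT boxes. Over the 34 USP genes with such a window the number of CpG ran from 2 to 63 with a median of 29.5, against a median of 7 over all 32851 windows of this length, which include those of non-coding genes.

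Each window was searched on both strands, overlapping matches counted, for 7 motifs. GGGCGG, the GC box, was found in 23 of 34 USP windows (67.6%) and in 35.7% of all windows. CCAAT was found in 9 (26.5%, against 37.4%), CACGTG, the E-box, in 4 (11.8%, against 7.15%) and TATAAA in 2 (5.88%, against 13.6%). AGGTCA, the core recognised by nuclear receptors including those of retinoic acid, was in 2 (5.88%, against 16.3%). TTCNNNGAA, the STAT palindrome, was also in 2 (5.88%, against 8.3%), and ATTTGCAT, the octamer, in 0 (against 1.74%). Of the 6 genes that fell, 5 had a window. GC boxes stood in those of Usp31, Usp46 and Usp47, CCAAT in that of Usp11 and CACGTG in that of Usp31. None of these 5 windows held AGGTCA, TTCNNNGAA, ATTTGCAT or TATAAA. A match is a description of letters and was not linked to binding here.

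Among the histone and chromatin enzymes, 2 of 9 fell in siSocs3, Usp44 and Usp46, and 7 of 9 estimates were below 0, with a median of −0.18. Over all genes 5.66% fell, 46% of estimates were below 0 and the median was 0.03. Usp44 encodes a histone deubiquitinase that also acts in the spindle checkpoint. It read 5.29 and 5.36 in siSocs3 and 6.24 and 5.88 in siNonTarget. The siSox17 arrays gave 5.48 and 5.81, the siFbxw7 arrays 5.70 and 5.84, and the siRnf31 arrays 5.73 and 5.63. The siSocs3 arrays were the lowest of the 10 and siNonTarget replicate 1 the highest. The difference was −0.73 ± 0.15 (SE, n = 2, limma adjusted p = 0.0217) and −0.56 without siNonTarget replicate 1 (adjusted p = 0.109). The call also ended without either siSocs3 array, without both arrays of high actin difference (−0.56) and with a 2-fold minimum. The gene is dim and has 1 probe set. It was below siNonTarget in the other 3 groups as well, by −0.41 ± 0.15 (siSox17), −0.29 ± 0.15 (siFbxw7) and −0.38 ± 0.15 (siRnf31), with adjusted p of 0.212, 0.772 and 0.778 in limma; these comparisons share the 2 control arrays.

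Usp46 encodes an enzyme that is active with the partners WDR48 and WDR20, as does its paralog Usp12. It read 8.44 and 8.63 in siSocs3 and 8.91 and 9.07 in siNonTarget. It read 9 and 9.05 in siSox17, 8.75 and 8.89 in siFbxw7, and 8.68 and 8.77 in siRnf31. Both siSocs3 arrays were the lowest, next to siRnf31 replicate 1. Usp46 fell by 0.45 ± 0.11 against siNonTarget (SE, n = 2, limma adjusted p = 0.0405). Usp46 kept this call in 7 of 20 other settings and lost it with a 2-fold minimum, not counted among the 20. Its other probe set gave −0.07 ± 0.12. Against siSox17 it was lower by −0.49 ± 0.11 (limma adjusted p = 0.0586), which did not pass. With the replicate block or without the dimmest 50% of genes Usp46 passed in that comparison. Usp12 was −0.08 ± 0.11 (adjusted p = 0.66).

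Usp3, a histone deubiquitinase of the DNA damage response, had the fifth smallest F test p of the family and no call (adjusted p = 0.183). It was lowest in siSox17, with 7.98 and 8.29, against 8.96 and 8.73 in siNonTarget. It read 8.34 and 8.48 in siSocs3, 8.76 and 8.38 in siFbxw7, and 8.41 and 8.58 in siRnf31, so every array of the 4 targeted groups was below siNonTarget replicate 1 and 1 of these 8 was above siNonTarget replicate 2. The difference was −0.71 ± 0.16 in siSox17 (limma adjusted p = 0.138) and −0.44 ± 0.16 in siSocs3 (0.127). All 5 probe sets of Usp3 were below 0 in siSocs3, from −0.19 to −0.71. The lowest passed over all probe sets (−0.71 ± 0.17, adjusted p = 0.0454) and lost the call without either siNonTarget, siSox17 or siSocs3 array. The other chromatin members did not pass. Usp49, a histone deubiquitinase, was −0.32 ± 0.13 (adjusted p = 0.167) and Usp36, a nucleolar enzyme, 0.07. Usp22, the SAGA complex enzyme, was −0.13, Usp16 0.22 and Usp21, which is known to stabilise NANOG, −0.18.

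**Figure D2:**
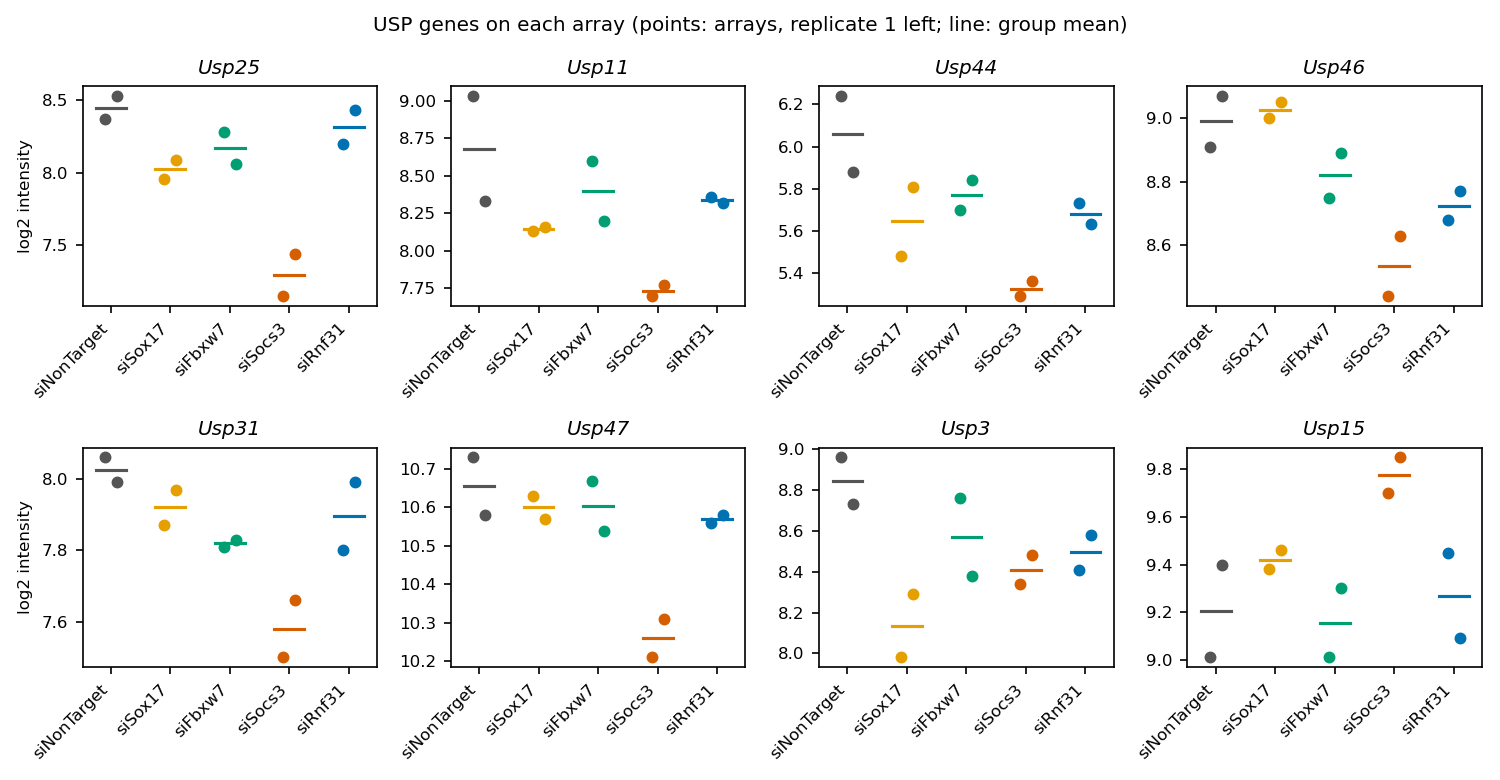
Log2 intensity (y axis) of 8 USP genes on each of the 10 arrays, by siRNA group (x axis), with lines at the group means. In the 6 called genes both siSocs3 arrays lie below the other 8; Usp3 is lowest in siSox17, and Usp15 is highest in siSocs3 without a call.

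In the group of immune signalling enzymes, Usp25 and Usp31 fell, 2 of 5 (5.66% of all genes), and the group's median was −0.33 (0.03 over all genes). The call of Usp31 depends on its probe set, as given next. Usp31, linked to NF-kappaB signalling, read 7.5 and 7.66 in siSocs3 and 8.06 and 7.99 in siNonTarget. It read 7.87 and 7.97 in siSox17, 7.81 and 7.83 in siFbxw7, and 7.80 and 7.99 in siRnf31. The siSocs3 arrays were the lowest, with no overlap. The difference was −0.44 ± 0.11 (SE, n = 2, limma adjusted p = 0.0384). This rests on the brightest of 4 probe sets. The others gave −0.09 ± 0.11, 0.39 ± 0.14 and 0.32 ± 0.17, and the mean of all 4 was 0.04 (adjusted p = 0.808), the opposite direction. The call was lost in 9 further settings of 20: without either siNonTarget, siSox17 or siSocs3 array, without both arrays of high actin difference, with the 2 groups alone and with quantile normalization. A 2-fold minimum, not counted among the 20, also ended it. Usp18, which removes the ubiquitin-like protein ISG15 and dampens interferon signalling, was −0.33 ± 0.21 (adjusted p = 0.352) at a dim level of 3.96 to 4.77. Usp40 was −0.18 ± 0.11 (adjusted p = 0.321) and Usp38 0.30.

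Of the 10 genes tied to DNA repair, p53 and checkpoints, Usp11 and Usp47 fell (5.66% of all genes) and 6 estimates were below 0 (46% of all genes), with a median of −0.12. Usp47 encodes an enzyme that acts on DNA polymerase beta. It read 10.21 and 10.31 in siSocs3 and 10.73 and 10.58 in siNonTarget, with 10.63 and 10.57 in siSox17, 10.67 and 10.54 in siFbxw7, and 10.56 and 10.58 in siRnf31. The siSocs3 arrays were again lowest, with no overlap. It fell by 0.39 ± 0.10 (SE, n = 2, limma adjusted p = 0.0459). Usp47 kept this call in 7 of 20 other settings and lost it with a 2-fold minimum, not counted among the 20. Its other probe sets gave −0.01 ± 0.10 and −0.72 ± 0.26. Usp42, which acts on p53, showed a like size without a call (−0.45 ± 0.13, adjusted p = 0.0633), with 9.69 and 9.81 against 10.30 and 10.10.

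The best studied genes of that group were near the control. Usp7, whose product acts on p53 and its ligase MDM2, stood between 11.69 and 11.87 on all 10 arrays and gave 0.11 in siSocs3. Usp1, which acts on FANCD2 and PCNA, stood between 12.03 and 12.17 and gave −0.08. Usp10, which acts on cytoplasmic p53, gave 0.03, and none of the 3 was called in any comparison. Usp24 (0.10), Usp45 (0.08) and the dim Usp29 (−0.36 ± 0.15, adjusted p = 0.183) did not pass either. Usp28 is known to stabilise MYC against FBXW7. In siFbxw7 it read 8.03 and 7.90, below 8.33 and 8.17 in siNonTarget, and the difference of −0.28 ± 0.10 did not pass (SE, n = 2, limma adjusted p = 0.752). It was the single USP gene with an unadjusted p under 0.05 in that comparison.

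No enzyme of the proteasome and ubiquitin recycling, of RNA processing, of membrane traffic and organelles, or of the cell cycle, Wnt and clock group was called in any of the 10 comparisons. Over all genes 9.26% were called between siSocs3 and siNonTarget, and from 0% to 3.51% in the other comparisons. Usp14, the proteasome-bound enzyme, was 0.13 ± 0.14 in siSocs3 (adjusted p = 0.608). Usp5, which takes apart free ubiquitin chains, was 0.06, and Usp13, its paralog, 0.03. Among the RNA processing genes, Usp15 read 9.70 and 9.85 in siSocs3, against 9.01 and 9.40 in siNonTarget and 9.01 to 9.46 on the other 6 arrays. It was highest on both siSocs3 arrays, yet 0.57 ± 0.17 did not pass (limma adjusted p = 0.0738), and its 5 dimmer probe sets were all below 0, from −0.09 to −0.42. Usp39, a spliceosome subunit without protease activity, was 0.27 ± 0.10 (adjusted p = 0.139) with 0.28 ± 0.10 on its other probe set. Usp30, on the outer mitochondrial membrane, was −0.31 ± 0.10 (adjusted p = 0.0954), and Usp2, a clock-controlled gene, 0.24 (0.385). The other membrane and organelle genes were Usp8, which acts at endosomes (0.19), Usp19 (−0.14), Usp20 (−0.23), Usp32 (−0.03) and Usp33 (0.06). Usp4, the paralog of Usp15, was −0.07, Usp34, which acts in Wnt signalling, −0.29, and Usp37, a cell cycle enzyme, 0.18. Among the members with little known roles, Usp50, which lacks protease activity and is dim here, was 0.60 ± 0.20 (adjusted p = 0.093). The rest were Usp26 (0.23), Usp43 (0.11), Usp48 (0.38), Usp53 (0.21) and Usp54 (−0.14).

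Probe sets of a gene often disagreed. Of the 34 USP genes with several, all estimates for siSocs3 lay on the same side of 0 in 16. When every probe set was tested alone, a setting added after seeing the data, 9 of 112 USP probe sets were called (8.04%), 5 lower and 4 higher, against 6.9% of all 34958 probe sets. The 5 lower ones belong to Usp25, Usp11, Usp44, Usp31 and Usp3. The 4 higher ones belong to Usp48, Usp45, Usp16 and Usp19, none of which was called by its brightest probe set. The 3 probe sets of Usp48 all lay above 0. They gave 0.38 ± 0.14 in the gene test (limma adjusted p = 0.133), 0.95 ± 0.28 (adjusted p = 0.077 over all probe sets) and 0.84 ± 0.13 (0.012). The last of these lost its call without siSocs3 replicate 1 (0.119) or siNonTarget replicate 1 (0.058). The called probe sets of Usp45 (0.63 ± 0.12), Usp16 (0.65 ± 0.12) and Usp19 (0.49 ± 0.12) are dim, with means of 5.51 to 5.67, and each lost its call without either siSocs3 array, among others.

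**Figure D3:**
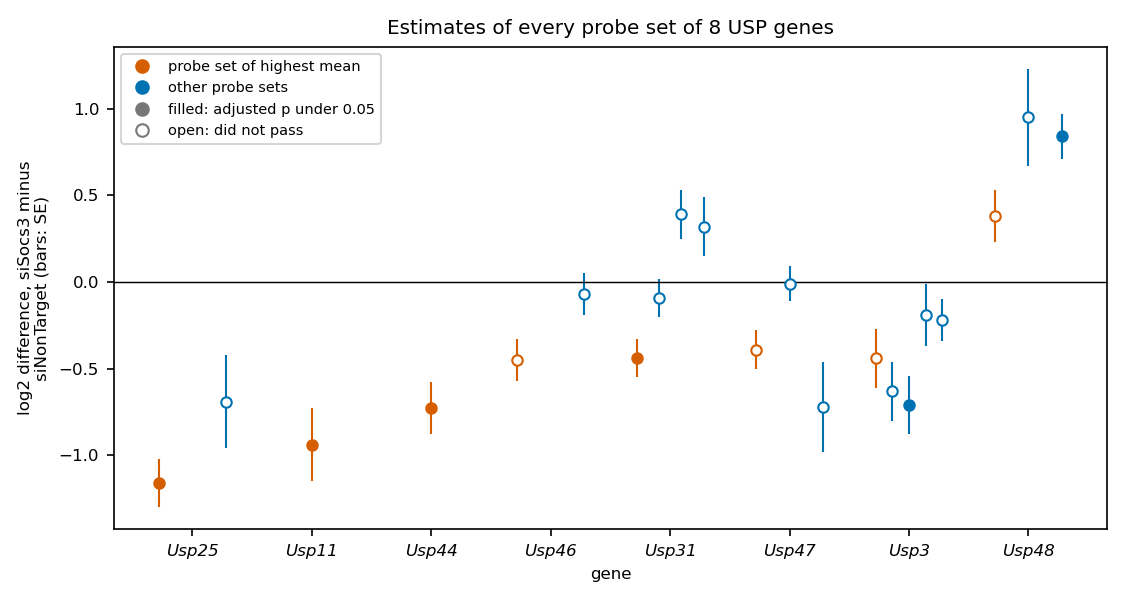
Log2 difference between siSocs3 and siNonTarget (y axis, bars of 1 standard error) for every probe set of 8 USP genes (x axis). Orange marks the probe set of highest mean, and filled points passed an adjusted p of 0.05 over all probe sets. The probe sets of Usp3 lie below 0 and those of Usp48 above it, while those of Usp31 lie on both sides.

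Set against all other arrays, the 2 controls included, 8 of 45 USP genes (17.8%) had both siSocs3 arrays below the other 8, against 10.4% of all genes. These were the 6 called genes, Usp42 and Usp40. In the opposite direction, 4 (8.89%) had both above, Usp15, Usp39, Usp16 and Usp48, against 11.3% of all genes. At an unadjusted p under 0.05, 15 of 45 (33.3%) differed between siSocs3 and siNonTarget, where 26.2% of all genes did.

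In the other groups no USP gene passed. In siSox17, 0 of 45 were called and 6 (13.3%) had an unadjusted p under 0.05 in limma, against 0.0055% and 17.3% of all genes. The single call over all genes became 234 without either siFbxw7 array and 254 with the 2 groups alone, with 0 USP genes among them. The 6 with an unadjusted p under 0.05 were Usp3, Usp25, Usp44, Usp54, Usp11 and Usp42, all lower; Usp25 was −0.43 ± 0.14 (adjusted p = 0.183). In siFbxw7, 0 were called and 1 (2.22%) had an unadjusted p under 0.05, against 0% and 6.45% of all genes. In siRnf31, 0 were called and 2 (4.44%), Usp44 and Usp46, were under 0.05 unadjusted, against 0% and 5.87%. The median USP difference was −0.05 in siSox17, −0.05 in siFbxw7 and −0.08 in siRnf31, and 0.00 over all genes in each. Estimates below 0 numbered 26, 29 and 29 of 45 (57.8%, 64.4% and 64.4%), against 50.6%, 49.8% and 50.9% of all genes. These comparisons share the 2 control arrays. In the direct comparisons among these 3 groups, 0 USP genes were called in each, as were 0% of all genes. Unadjusted, 1 (2.22%, Usp3) was under 0.05 between siSox17 and siFbxw7, 1 (2.22%, Usp46) between siSox17 and siRnf31 and 0 between siFbxw7 and siRnf31, against 5.59%, 7.68% and 5.19% of all genes (limma).

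**Figure D4:**
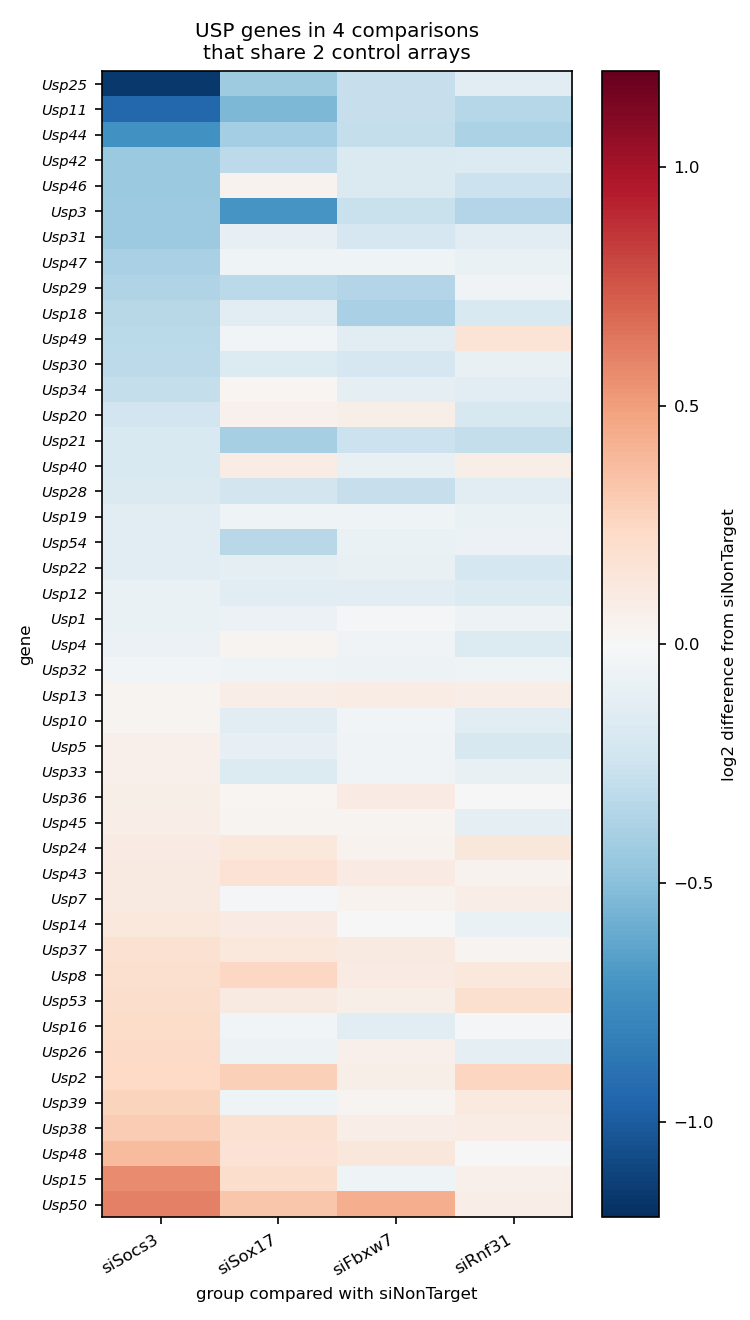
Log2 difference from siNonTarget (colour, blue lower and red higher) of the 45 USP genes (rows, ordered by siSocs3) in the 4 targeted groups (columns). The 4 columns share the 2 control arrays; the deepest blue is Usp25 in siSocs3 (−1.16), and the lowest value outside siSocs3 is Usp3 in siSox17 (−0.71).

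Replicate arrays set the limits of these comparisons. The median gap between the 2 arrays of a group over the 45 USP genes was 0.16 in siNonTarget, 0.15 in siRnf31, 0.14 in siFbxw7, 0.12 in siSox17 and 0.10 in siSocs3, close to those over all genes (0.11 to 0.15). The widest gaps were in Usp21 in siFbxw7 (9.10 and 8.40) and Usp11 in siNonTarget. Usp1 and Usp7 varied least, with a range of 0.13 and 0.18 over all 10 arrays.

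Other deubiquitinases and their partners were read from lists chosen with earlier results of these data known. Of 7 measured USP relatives whose symbols fall outside the naming rule, 2 rose in siSocs3, with a median of 0.13. Over all genes 3.59% rose and the median was 0.03. Usp17la belongs to a cluster of near-identical genes, so its signal may be shared with them. It read 12.50 and 12.39 in siSocs3, against 10.15 and 10.69 in siNonTarget and 9.38 to 10.85 on the other 6 arrays. It rose by 2.02 ± 0.26 against siNonTarget (SE, n = 2, limma adjusted p = 0.00509) and by 2.83, 2.56 and 1.96 against siSox17, siFbxw7 and siRnf31 (0.00158, 0.00186 and 0.00975). The first of these calls was lost without siSocs3 replicate 1 (1.97, adjusted p = 0.0645). Usp9y, a Y-linked gene read here near the bottom of the range, rose by 0.41 ± 0.11 (0.0463), while its X-linked relative Usp9x was 0.03 and Cyld, which cuts linear ubiquitin chains, 0.13.

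Other families of deubiquitinases were also read in siSocs3, where 9.26% of all genes were called, 5.66% lower and 3.59% higher. The median over all genes was 0.03. The calls below, and that of Usp9y above, were not tried in the other settings. Of 14 OTU genes, 4 UCH genes and 12 JAMM metalloproteases, 0 passed, with medians of 0.06, −0.03 and −0.05 (limma). Of 7 genes of the Josephin, MINDY and ZUFSP families, Mindy1 rose by 0.76 ± 0.13 (adjusted p = 0.0129) and Mindy2 fell by 0.93 ± 0.18 (0.0179). Of 16 USP partner genes 1 passed, the stress granule gene G3bp2, which binds USP10 (0.38 ± 0.10, adjusted p = 0.0489), and 0 of 5 ubiquitin and ubiquitin-like precursors did. Of 24 genes for proteins known as USP substrates, Nanog rose (1.54 ± 0.22, adjusted p = 0.00796), and Id2 (−1.09 ± 0.16, 0.00845), Tgfbr1 (−0.44 ± 0.10, 0.0315) and Tnks (−0.49 ± 0.13, 0.0432) fell. Tnks encodes a tankyrase, TGFBR1 is the TGF-beta receptor and ID2 an inhibitor of differentiation that USP1 is known to stabilise; the median of this list was 0.02, and only levels of RNA were measured.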

How the data were processed

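Arrays were hybridised with amplified, biotin-labelled cDNA from 5 ng of total RNA. The authors deposited an intensity for each probe set on each array. The submitters' processing notes name RMA, with a version not given in the sources used here. RMA makes the distributions of arrays alike, so a shift shared by most genes would not show. The values (5.05 to 31606.3) are linear and were turned to log2. Of 45101 probe sets, 34958 have 1 gene symbol in the platform annotation, 932 several (left out, 2 of them with a USP gene) and 9211 none. Gene IDs of 34754 matched the RefSeq table of GRCm38.p6, and 0 symbols changed. No coordinates of the array were used. All 18194 genes entered 1 limma 3.58.1 model (R 4.3.3) of the 5 groups (lmFit, eBayes; residual degrees of freedom 5, prior 3.98), with 10 two-sided contrasts plus an F test, with Benjamini-Hochberg adjustment within each. With 2 arrays per group, their number limits the precision, and no exact permutation test of 2 against 2 can reach 0.05.

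The USP genes, role groups, lists and alternatives were chosen with earlier results of these data known. Named with every array are genes called in any contrast and the 5 of smallest F test p; other members are given by role, with at least the one of smallest F test p. Tnks, Usp48, Usp21, Usp28, Usp7, Usp1 and others beyond this were named after their values were seen. Start regions are RefSeq's, and 11 USP genes had none in the table used. Alternatives were a replicate block, the 2 groups alone, the 4 targeted groups alone, median centring, quantile normalization, a prior both trended and robust, tests without the dimmest 30% or 50% of genes, a 2-fold minimum, the mean of probe sets or the one of highest median, and each array left out (the array left alone is then taken to vary as other groups do). Leaving out both arrays of high actin difference and testing every probe set were added after seeing the data. Plots used Python 3.11.15 and matplotlib 3.10.9.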

Additional observations from a re-analysis of the deposited data

Results flagged for a closer look

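Usp25 differed between groups under the same contrast with siNonTarget. It was lower in siSocs3 than in siSox17 by −0.73 ± 0.14, than in siFbxw7 by −0.88 ± 0.14 and than in siRnf31 by −1.02 ± 0.14 in log2 units (n = 2 per group, SE, limma adjusted p = 0.034, 0.0136 and 0.0109). All 3 calls were lost without siSocs3 replicate 1 (adjusted p = 0.282, 0.145 and 0.129). With 2 arrays per group, no group was large enough for a search for outlying arrays.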

How the results depend on the processing

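The direction of Usp25, Usp11, Usp44, Usp46, Usp47 and Usp3 held in every setting run. Usp31 turned to 0.04 with the mean of its probe sets. The count of USP genes called between siSocs3 and siNonTarget was 6. It was 5 with the mean of probe sets, of which 3 were lower and Usp16 and Usp48 higher. It was 3 with quantile normalization, 1 with a 2-fold minimum, 2 with the arrays of the 2 groups alone and 2 without both arrays of high actin difference, and ran from 0 to 7 with single arrays left out. In the comparison with siSox17 it was 1, and 2 with the replicate block or without the dimmest 50% of genes, 0 with the mean of probe sets or a 2-fold minimum, and 0 to 1 with single arrays left out. With siFbxw7 it was 1, and 2 with the mean of probe sets or the targeted groups only, 0 with a 2-fold minimum, the 2 groups alone or without both high-actin arrays, and 0 to 2 with single arrays left out. With siRnf31 it was 1, and 0 with the mean of probe sets, 2 with the 2 groups alone, 3 without both high-actin arrays, and 0 to 2 with single arrays left out. The F test count was 1, 0 with the mean of probe sets and 0 to 2 with single arrays left out. The counts of 0 in the other comparisons stayed 0 in every setting run. Where these counts moved, the cause was not tested.

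Arrays of 1 number mostly did not deviate together. The correlation of deviations across genes was over 0.1 in 1 of 10 pairs of groups (−0.26 to 0.42), so the numbers are not taken as pairs. That pair was siNonTarget with siFbxw7 (0.42), whose replicate 1 arrays are those of high actin difference (0.50 and 0.60). Whether RNA quality lies behind it was not tested. With the replicate block 5 USP genes were called between siSocs3 and siNonTarget, without Usp47 (adjusted p = 0.0567). Low signal limits Usp18, Usp26, Usp29 and Usp50, which lie among the dimmest 30% of genes.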
